A study of Mus musculus with 26 samples.

Results

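Sertoli cell genes were followed through whole-testis RNA-seq of *10xBulge*, *10xPerf* and wild-type (WT) mice. The 33 genes were picked by name, as genes whose RNA or protein is widely used to identify Sertoli cells or to follow their functions, and all 33 were found among the 51124 genes of the deposited expression table. They comprise 8 transcription factors, 8 hormones, growth factors and their receptor, 7 barrier, junction and cytoskeleton genes, 8 secreted proteins and proteases, and 2 other genes, *Aard* and *Mro*. A minimum of 10 normalized counts in at least 2 libraries was met by 23782 genes, 32 of the 33 Sertoli cell genes among them. *Krt18* was the exception, and its values are given without a test.

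Sertoli cells are the somatic cells of the seminiferous tubule. They hold germ cells of every stage in folds of their surface, and tight junctions between neighbouring Sertoli cells form the blood-testis barrier, which keeps meiotic and haploid germ cells apart from the blood. They respond to follicle-stimulating hormone and testosterone, send growth factors to spermatogonia, and secrete carrier proteins and proteases into the tubule. Transcription factors such as SOX9, WT1 and GATA4 establish and keep their identity. Several of these genes are not restricted to Sertoli cells: Leydig cells also express *Gata4*, *Inha* and *Nr0b1*, and macrophages express *Il1a*.

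Each of the knock-in lines carries 10 target sites for piR-A, one abundant piRNA, behind the coding sequence of *Ythdc2*, a gene required in the male germline, in its 3′UTR. The sites of *10xPerf* pair perfectly with piR-A, whereas those of *10xBulge* are mismatched opposite piRNA nucleotides 10 and 11. Both lines were made by CRISPR/Cas9 editing in B6D2F1/J hybrid embryos and studied as homozygotes, and WT mice without inserted sites were the controls. Ribosomal RNA-depleted total RNA of adult testes was sequenced, one mouse per library, from 2 WT (N1, N2), 2 *10xPerf* (N3, N4) and 2 *10xBulge* (N5, N6) mice. The age beyond adult and the number of founder animals behind each line are not given in the sources used here.

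The libraries held about 41100000 to 61600000 assigned reads each, so 3 reads corresponded to between 2.73 and 3.63 normalized counts. A pair of abundant small noncoding RNAs took 7.71 to 16.8% of the normalized counts of a library. Log2 levels within a genotype correlated with a Pearson coefficient of 0.951 to 0.958 across genes. An exact permutation test of 2 libraries against 2 has a smallest p of 0.33, so the test used was limma with a variance shared across all 6 libraries, and calls were made at a Benjamini-Hochberg adjusted p below 0.1 over all genes tested. Both comparisons with WT share N1 and N2.

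The Sertoli cell genes were detected in all genotypes, and only *Il1a* in N1 and *Krt18* in N1 and N6 were below the worth of 3 reads. Per kilobase of the longest annotated transcript of each gene, *Clu* had the highest WT level, with 26194 normalized counts per kilobase. It was followed by *Defb19* with 13588 and *Cldn11* with 4641. *Il1a* (3.68) and *Krt18* (2.12) were the lowest on the same scale. The summed share of the 33 genes in the normalized counts of all protein-coding genes was 0.255% in N1 and 0.284% in N2, 0.227% in N3 and 0.294% in N4, and 0.919% in N5 and 0.657% in N6. The shares of the *10xPerf* libraries lay around those of WT, and both *10xBulge* shares were above all 4 others. Since whole testes were measured, a different number of cells of a type and a different amount of RNA per cell cannot be told apart. Nor can either be told apart from a change in the RNA of other cell types, because the values are scaled between libraries.

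**Figure D1:**
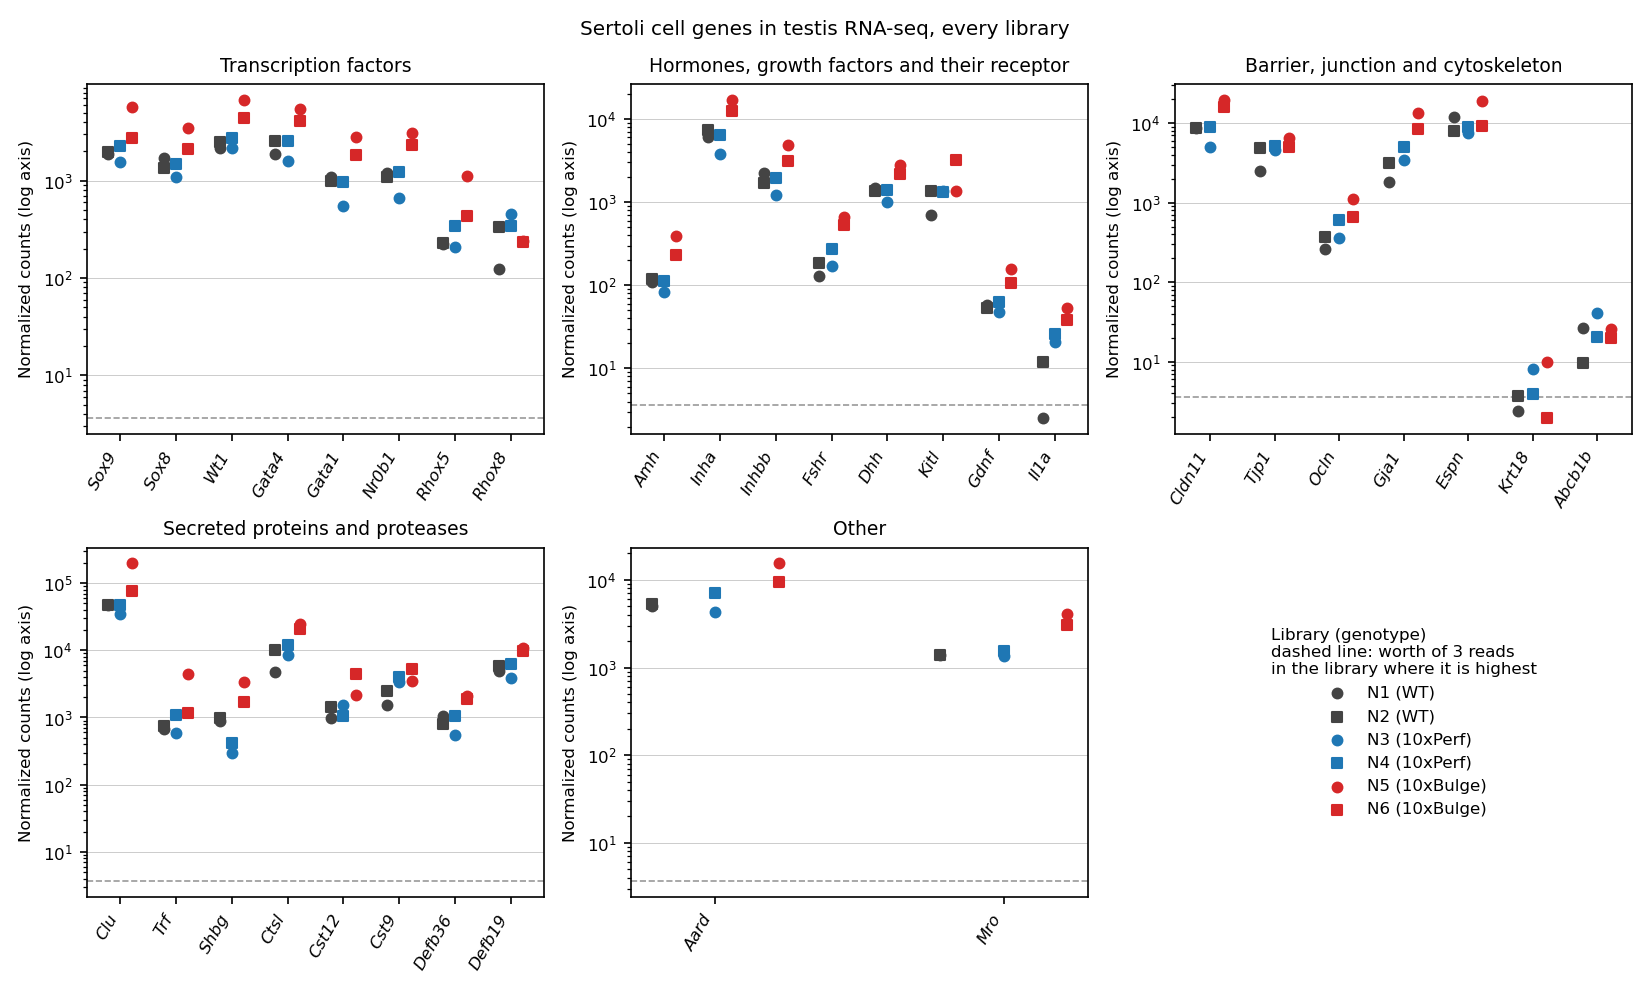
Normalized counts of the 33 Sertoli cell genes (log axis) in each of the 6 libraries, by functional group. Points are single libraries of WT, *10xPerf* and *10xBulge* testes. The *10xBulge* points are above both WT points for 29 of the 32 tested genes, and *Rhox8*, *Espn* and *Abcb1b* overlap.

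In *10xBulge* testes, Sertoli cell genes from every functional group were higher than in WT. Of the 32 genes tested, 21 rose, none fell and 11 did not pass the test, against 11.4% of all genes called higher and 23% called lower in this comparison. All 32 log2 fold changes were above 0, with a median of 1.17 and a range of 0.23 to 2.76, while the median over all genes was -0.026. Both *10xBulge* libraries exceeded both WT libraries for 29 genes, compared with 28.9% of all genes. The genes called higher were 7 of 8 secreted proteins and proteases, 5 of 8 transcription factors, 5 of 8 hormones and growth factors, 2 of 6 tested barrier genes and both other genes.

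With a single library left out, 31 or 32 of the 32 log2 fold changes against WT stayed above 0. Their median was 1.17 without N1, 1.29 without N2, 0.91 without N5 and 1.45 without N6. It stayed at 1.17 without N3 or N4, the *10xPerf* libraries, which enter this comparison through the shared variance only. Fewer of the genes passed the test than with all 6 libraries, except without N6. Each of these fits leaves a genotype with a single library, so calls are not counted. With all 6 libraries and an adjusted p below 0.05, 6 genes were called higher, beside 5.76% of all genes. These 6 were *Gja1*, *Fshr*, *Il1a*, *Mro*, *Ctsl* and *Ocln*.

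Among the transcription factors, *Wt1*, which encodes a zinc-finger regulator needed to maintain Sertoli cells, was measured at 2162 and 2482 normalized counts in WT and at 6658 and 4391 in *10xBulge*. This is a log2 fold change of 1.22 with a standard error (SE) of 0.40 and a limma adjusted p of 0.0523. The GATA factor genes rose with it. *Gata4*, a regulator of gonadal somatic cells, had 1877 and 2554 normalized counts in WT and 5463 and 4127 in *10xBulge* (log2 fold change 1.12, SE 0.42, limma adjusted p = 0.0823). *Gata1*, known in the testis from Sertoli cells, went from 1079 and 999 to 2828 and 1852 (1.14, SE 0.44, limma adjusted p = 0.0862). *Nr0b1*, which encodes the nuclear receptor DAX1, was measured at 1210 and 1077 in WT and at 3114 and 2302 in *10xBulge* (1.23, SE 0.43, limma adjusted p = 0.0658). For each of these 4 genes, the lower *10xBulge* library was above the higher WT library.

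The SOX genes did not pass the test. *Sox9*, the gene that directs Sertoli cell differentiation, had 1883 and 1951 normalized counts in WT, 5708 in N5 and 2731 in N6, a log2 fold change of 1.04 with a 95% confidence interval of 0.00 to 2.08 and a limma adjusted p of 0.129. Its relative *Sox8* had 1717 and 1343 in WT and 3434 and 2117 in *10xBulge*, with a log2 fold change of 0.83 (SE 0.42, limma adjusted p = 0.179). In both cases the groups did not overlap. The N5 to N6 ratio was 2.09 for *Sox9* and 1.62 for *Sox8*.

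The paired homeobox genes *Rhox5* and *Rhox8* lie 65.9 kb apart on chromosome X and differed in their values. *Rhox5*, which is controlled by androgen in Sertoli cells, had 221 and 229 normalized counts in WT and 1103 and 430 in *10xBulge*, and rose by 1.61 on the log2 scale (SE 0.53, limma adjusted p = 0.0520). *Rhox8* had 125 and 331 in WT and 243 and 234 in *10xBulge*, so its *10xBulge* values fell between the WT values (log2 fold change 0.23, 95% confidence interval -0.94 to 1.40, limma adjusted p = 0.784). The ratio of *Rhox5* to *Rhox8* was 1.77 in N1 and 0.692 in N2, and 4.55 in N5 and 1.84 in N6. The difference between the 2 genes was not tested.

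Because GATA and SOX genes are members themselves, the 300 bases from 250 before to 50 after each RefSeq start site (GRCm38.p6) were searched on both strands for their short recognition letters. A RefSeq promoter was found for 23 of the 33 genes. GATA letters (TGATAA or AGATAA) occurred in 5 of the 23 genes, or 21.7%, and in 21.0% of all genes, and SOX letters (AACAAT) occurred in 3 genes, or 13.0%, and in 12.2% of all. The 6 letters of a cAMP response element (TGACGT) were found in 8.70% of members and 8.37% of all genes, and a TATA box (TATAAA) in 21.7% and 15.7%. The shares were thus close to those of all genes for GATA, SOX and cAMP response letters. Stretches with GATA letters are shown for 4 of the 5 genes, 5′ to 3′ on the strand of the gene, with the matched letters in capitals (TTATCT is AGATAA read on the opposite strand). They lie at chr2:148835078-148835107 (*Cst9*, + strand), chr10:56377153-56377182 (*Gja1*, +), chr11:69618097-69618126 (*Shbg*, -) and chr15:7813631-7813660 (*Gdnf*, +).
Cst9: tgtacatgactgTGATAActgaggaggagt
Gja1: gaaactacaactTTATCTtgaccaggttgc
Shbg: aggagcctcactAGATAAcagtgagggaga
Gdnf: ccaaactgagatAGATAAataaataaataa
*Cst9*, *Gja1*, *Shbg* and *Gdnf* were each called higher in *10xBulge* against WT, whereas the fifth gene, whose stretch is not shown, was not called. Among all tested members, with or without these letters, 65.6% were called higher. The window of another *Gdnf* start site, upstream of the one shown, held no GATA letters. A match of 6 letters describes the sequence only and shows no binding.

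Among the hormone and growth factor genes, the receptor for follicle-stimulating hormone had the lowest adjusted p. *Fshr* (GRCm38 chr17:88984952-89200675) had 128 and 184 normalized counts in WT, 170 and 270 in *10xPerf*, and 667 and 526 in *10xBulge*. Against WT, its *10xBulge* log2 fold change was 1.94 (SE 0.44, limma adjusted p = 0.0113), and both *10xBulge* libraries were above the other 4. *Amh*, the hormone that removes the Müllerian ducts of the male fetus and is low in adult Sertoli cells, had 108 and 118 in WT and 390 and 233 in *10xBulge* (1.41, SE 0.46, limma adjusted p = 0.0501).

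The inhibin genes were divided by the test. *Inha*, the subunit particular to inhibin, which restrains pituitary follicle-stimulating hormone, had 6082 and 7363 normalized counts in WT and 16737 and 12500 in *10xBulge* (log2 fold change 1.11, SE 0.43, limma adjusted p = 0.0904). *Inhbb*, whose subunit is shared by inhibin B and activin B, had 2236 and 1703 in WT and 4813 and 3106 in *10xBulge*, and did not pass (0.99, SE 0.43, limma adjusted p = 0.125). The 2 fold changes differed by less than either standard error.

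The genes for signals to other testis cells were also spread over both sides of the threshold. *Gdnf*, the factor that maintains spermatogonial stem cells, had 57.4 and 52.7 normalized counts in WT and 156 and 106 in *10xBulge*, and rose by 1.21 (SE 0.47, limma adjusted p = 0.0920). *Kitl*, the ligand of the KIT receptor of differentiating spermatogonia, had 692 and 1343 in WT and 1348 and 3181 in *10xBulge* (log2 fold change 1.10, SE 0.52, limma adjusted p = 0.150). The lower *Kitl* value of *10xBulge* was thus nearly equal to the higher WT value and to both *10xPerf* values, 1347 and 1337. *Dhh*, the hedgehog ligand that acts on Leydig and peritubular cells, had 1463 and 1377 in WT and 2779 and 2185 in *10xBulge* (0.80, SE 0.39, limma adjusted p = 0.166).

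*Il1a*, a cytokine gene, had the largest fold change of the 32 genes, from a very low WT level. It was measured at 2.51 and 12.0 normalized counts in WT, 20.6 and 25.7 in *10xPerf*, and 52.7 and 38.1 in *10xBulge* (log2 fold change 2.76, SE 0.72, limma adjusted p = 0.0215). The N1 value is below the worth of 3 reads in that library, so its fold change depends on the pseudocount of 1.

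Among the barrier and junction genes, *Gja1* stood out. It encodes connexin 43, the gap junction protein that links Sertoli cells to each other and to germ cells, and lies at GRCm38 chr10:56377330-56402513. Its normalized counts were 1833 and 3127 in WT, 3402 and 5070 in *10xPerf*, and 13312 and 8324 in *10xBulge*. Both *10xBulge* libraries were above all others, and the log2 fold change against WT was 2.14 (SE 0.46, 95% confidence interval 1.10 to 3.17, limma adjusted p = 0.00809). *Gja1* was called higher under all 19 alternative settings, with limma adjusted p between 0.00239 and 0.0866.

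The tight junction genes gave different answers. *Ocln*, which encodes occludin, had 261 and 373 normalized counts in WT and 1111 and 657 in *10xBulge*, and rose by 1.45 (SE 0.46, limma adjusted p = 0.0489). *Cldn11*, the claudin that forms the strands of the Sertoli cell barrier, had 8747 and 8610 in WT and 19286 and 15803 in *10xBulge*, a log2 fold change of 1.01 that did not pass (SE 0.43, limma adjusted p = 0.117). *Tjp1*, which encodes the scaffold protein ZO-1, had 2514 and 4805 in WT and 6519 and 5039 in *10xBulge* (0.72, SE 0.44, limma adjusted p = 0.257). The *10xPerf* values of *Tjp1*, 4613 and 5140, reached those of *10xBulge*.

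The remaining 3 barrier and cytoskeleton genes overlapped between *10xBulge* and WT. *Espn*, which encodes the actin-bundling protein espin of the ectoplasmic specializations, had 11870 and 8065 normalized counts in WT and 18880 and 9143 in *10xBulge* (log2 fold change 0.43, 95% confidence interval -0.64 to 1.49, limma adjusted p = 0.545). *Abcb1b*, a gene for an efflux pump, was low throughout, at 26.8 and 9.73 in WT and 26.2 and 20.2 in *10xBulge* (0.47, SE 0.67, limma adjusted p = 0.646). *Krt18*, a keratin gene used as a marker of immature Sertoli cells, had between 1.95 and 10.1 normalized counts in the 6 libraries, with its lowest and its highest value both in *10xBulge*.

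**Figure D2:**
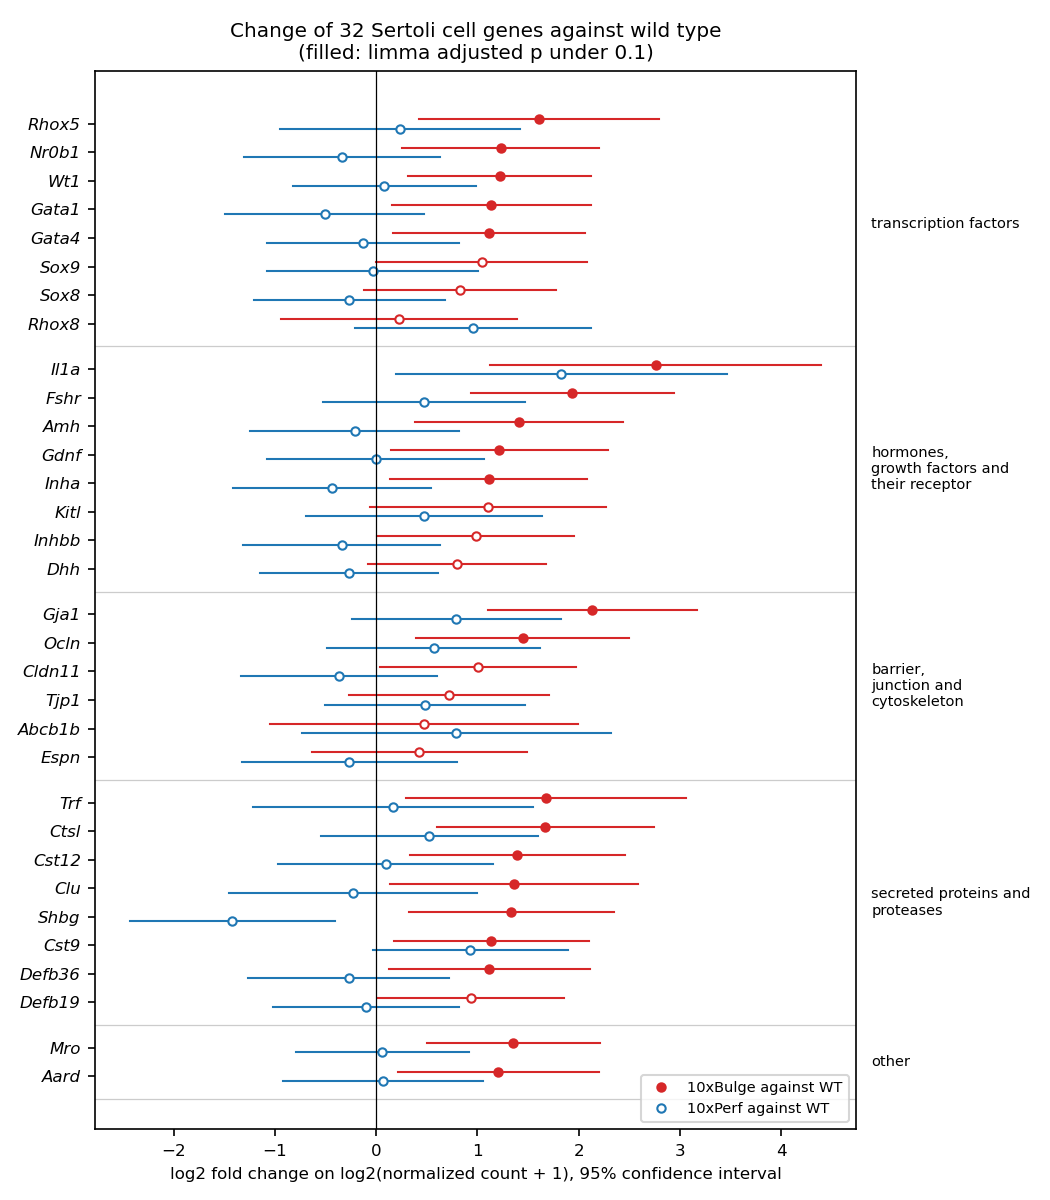
Log2 fold changes of the 32 tested Sertoli cell genes, *10xBulge* against WT and *10xPerf* against WT, with 95% confidence intervals from limma and filled points for adjusted p below 0.1. All 32 *10xBulge* points lie above 0 and 21 are called, whereas the *10xPerf* points lie on both sides of 0 and none is called.

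The secreted proteins and proteases were the group with the most genes called. *Clu*, which encodes the chaperone clusterin, a main secretory product of Sertoli cells, had 48083 and 46738 normalized counts in WT, 196130 in N5 and 75652 in N6 (log2 fold change 1.36, SE 0.54, limma adjusted p = 0.0971). *Trf*, the gene of the iron carrier transferrin, had 674 and 757 in WT, 4434 in N5 and 1180 in N6 (1.68, SE 0.61, limma adjusted p = 0.0748). For both genes the *10xBulge* mice differed from each other by more than 2.5-fold, *Trf* by 3.76-fold and *Clu* by 2.59-fold. *Shbg*, the source of androgen-binding protein (GRCm38 chr11:69614804-69617905), had 900 and 978 in WT and 3330 and 1682 in *10xBulge* (1.33, SE 0.45, limma adjusted p = 0.0569).

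The protease gene and the cystatin family genes of this group all rose. *Ctsl*, the lysosomal and secreted protease cathepsin L, had 4818 and 10263 normalized counts in WT, 8552 and 11987 in *10xPerf*, and 24432 and 20480 in *10xBulge* (log2 fold change 1.67, SE 0.47, limma adjusted p = 0.0303). *Cst12* and *Cst9*, neighbouring genes of the cystatin family of protease inhibitors 41.6 kb apart on chromosome 2, rose by 1.39 (SE 0.47, limma adjusted p = 0.0581) and by 1.14 (SE 0.42, limma adjusted p = 0.0798). *Cst12* had 973 and 1426 in WT and 2180 and 4399 in *10xBulge*, and *Cst9* had 1527 and 2440 in WT and 3452 and 5242 in *10xBulge*. In both cystatin genes N6 was the higher *10xBulge* library, unlike in most other members.

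The neighbouring beta-defensin genes *Defb36* and *Defb19*, 24.0 kb apart on the same chromosome, belong to a family of small antimicrobial proteins. *Defb36* had 1054 and 804 normalized counts in WT and 2112 and 1897 in *10xBulge* (log2 fold change 1.12, SE 0.44, limma adjusted p = 0.0939), and *Defb19* had 4917 and 5790 in WT and 10804 and 9659 in *10xBulge* (0.94, SE 0.41, limma adjusted p = 0.125). Their values were of similar size on either side of the threshold.

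The 2 other members were both called. *Mro*, a gene expressed in somatic cells of the developing male gonad, had 1393 and 1382 normalized counts in WT and 4132 and 3058 in *10xBulge* (log2 fold change 1.36, SE 0.38, limma adjusted p = 0.0281). *Aard* had 5091 and 5351 in WT and 15382 and 9449 in *10xBulge* (1.21, SE 0.44, limma adjusted p = 0.0742).

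In *10xPerf* testes, no Sertoli cell gene was called in either direction, where 0.467% of all genes were called higher and 0.492% lower. The limma test gave an unadjusted p below 0.05 for 2 of the 32 genes and a lowest adjusted p of 0.460. Their log2 fold changes were above 0 for 16 genes and below 0 for 16, with a median of 0.028 beside 0.018 over all genes. Both *10xPerf* libraries were above both WT libraries for 4 genes and below them for 2, compared with 20.2% and 19.8% of all genes. The fold changes ranged from -1.42 to 1.83, and with 2 libraries a genotype their intervals were wide.

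The lowest of these was that of *Shbg*, which had 900 and 978 normalized counts in WT but 297 and 412 in *10xPerf*. Its log2 fold change was -1.42 (SE 0.45, 95% confidence interval -2.43 to -0.41), and it did not pass after adjustment (limma adjusted p = 0.460, unadjusted 0.0111). The highest was that of *Il1a* (1.83, 95% confidence interval 0.20 to 3.46, limma adjusted p = 0.719). *Rhox8*, at 456 and 344 normalized counts in *10xPerf*, had a log2 fold change of 0.96 (SE 0.52, limma adjusted p = 0.853), and *Cst9*, at 3386 and 4011, one of 0.93 (SE 0.42, limma adjusted p = 0.842).

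Compared directly, *10xBulge* was higher than *10xPerf* for 22 of the 32 genes and lower for none, against 12.9% and 24.1% of all genes. The median log2 difference was 1.23, beside -0.067 over all genes. Both *10xBulge* libraries exceeded both *10xPerf* libraries for 28 genes and were below them for 1, compared with 30.7% and 35.3% of all genes. By group, 6 of 8 transcription factors, 6 of 8 hormones and growth factors, 2 of 6 barrier genes, 6 of 8 secreted proteins and both other genes were called. The median log2 difference was 0.93 without N3, 1.41 without N4, 0.95 without N5 and 1.48 without N6. *Shbg* had the largest difference, 2.75 (SE 0.45, limma adjusted p = 0.00150), from 297 and 412 normalized counts in *10xPerf* to 3330 and 1682 in *10xBulge*, and it was called under all 19 alternatives. *Rhox8* was the only gene with both *10xBulge* libraries below both *10xPerf* libraries (-0.73, SE 0.52, limma adjusted p = 0.325). *Cst9* (0.21, SE 0.42, limma adjusted p = 0.753) and *Il1a* (0.93, SE 0.72, limma adjusted p = 0.371) did not pass.

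Measured against the median of the Sertoli cell genes in each library, few members departed from the rest. With all values centred on that median, *Gja1* was the only member called in *10xBulge* against WT (relative log2 difference 0.97, limma adjusted p = 0.0866). The relative differences of *Il1a* (1.59, limma adjusted p = 0.116) and *Fshr* (0.77, limma adjusted p = 0.162) did not pass. *Rhox8* (-0.94, limma adjusted p = 0.187) and *Espn* (-0.74, limma adjusted p = 0.168) had the lowest values and did not pass either.

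Genes of the pathways around the Sertoli cell were examined as 4 lists. Of 16 other tight junction and adhesion genes, 15 were tested in *10xBulge* against WT, 3 rose and 1 fell, with a median of 0.65. In this comparison 11.4% of all genes were called higher and 23% lower. *Ctnnb1*, which encodes beta-catenin, rose by 1.60 (SE 0.44, limma adjusted p = 0.0266), *Jam3* by 1.28 and *F11r* by 1.14, both genes of junctional adhesion molecules (limma adjusted p = 0.0332 and 0.0895). *Nectin3*, whose protein joins spermatids to Sertoli cells, had 9733 and 15113 normalized counts in WT and 4539 and 7036 in *10xBulge*, and fell by 1.10 (SE 0.43, limma adjusted p = 0.0941).

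Of 8 inhibin, activin and anti-Müllerian hormone partners, 2 rose and none fell in *10xBulge* against WT, beside 11.4% and 23% of all genes. *Fst*, which encodes the activin-binding protein follistatin, had 42.8 and 57.6 normalized counts in WT, 27.2 and 28.8 in *10xPerf*, and 197 and 273 in *10xBulge* (log2 fold change 2.20, SE 0.47, limma adjusted p = 0.00817). *Tgfbr3*, the gene of the inhibin co-receptor betaglycan, rose by 1.21 (SE 0.40, limma adjusted p = 0.0562). Both *10xBulge* values of *Fst* were above those of the other 4 libraries.

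Of 8 receptors and targets of Sertoli cell signals, 3 rose in *10xBulge* against WT, beside 11.4% of all genes. *Kit*, the receptor of the *Kitl* product, had 1652 and 1473 normalized counts in WT and 5556 and 4738 in *10xBulge* (log2 fold change 1.72, SE 0.40, limma adjusted p = 0.0127), while *Kitl* itself did not pass. *Ptch1*, the gene of a receptor for the *Dhh* product, rose by 1.36 (SE 0.42, limma adjusted p = 0.0437). *Il1r1*, the receptor gene for interleukin 1, rose by 1.55 (SE 0.51, limma adjusted p = 0.0539).

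Of 7 other regulators of Sertoli cells, none fell in *10xBulge* against WT, beside 23% of all genes. *Nr5a1*, a nuclear receptor gene also active in Leydig cells, rose by 1.34 (SE 0.41, limma adjusted p = 0.0422). In *10xPerf* against WT, no gene of the 4 lists was called, beside 0.467% of all genes called higher and 0.492% lower.

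Markers of other testis cell types moved in the same libraries, where 11.4% of all genes were called higher and 23% lower in *10xBulge* against WT. All 8 spermatid markers fell in *10xBulge* against WT, with a median log2 fold change of -8.61, and their summed normalized counts were 675607 and 483502 in WT against 1551 and 872 in *10xBulge*. All 6 macrophage markers rose (median 1.68, summed 2476 and 3443 in WT, 11268 and 7125 in *10xBulge*), as did 4 of 6 Leydig cell markers (median 1.58, summed 50112 and 70960 in WT, 285571 and 137284 in *10xBulge*). Of 8 spermatocyte markers 1 rose (median 0.11), and of 8 spermatogonial markers none rose and 1 fell (median 0.56). None of 5 peritubular myoid (median 0.30) and none of 4 endothelial markers (median 0.43) was called. None of the spermatid, Leydig cell and macrophage markers was listed at 0 in any library, and the part of these cell types in the Sertoli cell values was not tested. In *10xPerf* no marker of any list was called, beside 0.467% of all genes called higher and 0.492% lower.

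**Figure D3:**
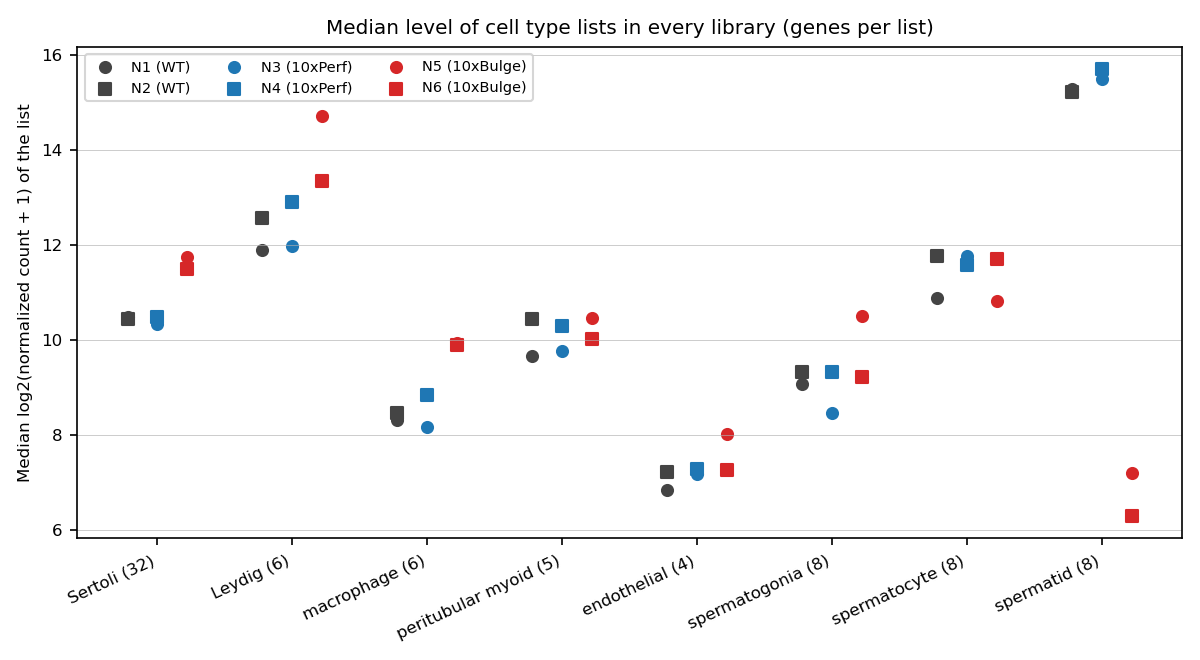
Median log2 normalized count of the Sertoli cell genes and of the marker lists of other testis cell types in each library. The Sertoli cell median was 10.48 and 10.43 in WT, 10.33 and 10.49 in *10xPerf*, and 11.75 and 11.50 in *10xBulge*, while the spermatid median was 15.28 and 15.22 in WT and 7.20 and 6.29 in *10xBulge*.

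Set against the 7 marker lists within the same library, the Sertoli cell median was higher in *10xBulge* than in WT relative to 4 lists, overlapped for 2 and was lower for 1. The Sertoli cell median minus the spermatocyte median was -0.41 and -1.33 in WT and 0.93 and -0.20 in *10xBulge* on the log2 scale, so the groups were separate by a small gap. The Sertoli cell difference was also separate, and higher in *10xBulge*, against the peritubular myoid median (0.83 and -0.017 in WT, 1.30 and 1.48 in *10xBulge*), the endothelial median (3.64 and 3.22, then 3.74 and 4.24) and the spermatid median (-4.80 and -4.79, then 4.55 and 5.21). The endothelial gap, between 3.64 in N1 and 3.74 in N5, was small as well. Against the spermatogonial median, the difference was 1.41 and 1.10 in WT and 1.26 and 2.27 in *10xBulge*, and the groups overlapped. Against the Leydig cell median it was -1.42 and -2.13 in WT and -2.96 and -1.85 in *10xBulge*, again with overlap. Against the macrophage median, both *10xBulge* values (1.82 and 1.62) were below both WT values (2.17 and 1.97).

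The *10xBulge* mice were unequal in most Sertoli cell genes. In 29 of the 32 tested genes N5 was higher than N6, with a median log2 difference of 0.45. The N5 to N6 ratio was 3.76 for *Trf*, 2.59 for *Clu*, 2.57 for *Rhox5* and 2.09 for *Sox9*, but 0.424 for *Kitl*, 0.496 for *Cst12* and 0.658 for *Cst9*. *Kitl*, *Cst12* and *Cst9* were the 3 genes higher in N6. In *10xPerf*, 28 of the 32 genes were higher in N4 than in N3, and in WT 12 were higher in N1 than in N2.

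The GC content of the transcripts moved with these differences between mice of a genotype. Across the 32 genes, whose GC content ran from 39.3 to 65.4%, the Spearman coefficient between GC content and the log2 ratio was 0.61 for N1 over N2, 0.37 for N4 over N3 and 0.36 for N5 over N6. Over 12426 protein-coding genes the coefficients were 0.61, 0.24 and 0.52. These are descriptions across genes of the same library pairs, and genes are not independent replicates. With the GC trend removed from each library, 28 Sertoli cell genes were called higher in *10xBulge* against WT, with a median of 1.31. In the same setting 20.1% of all genes were called higher, and the median over all genes was 0.11. The members' median was 1.20 above that of all genes both with and without this removal.

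**Figure D4:**
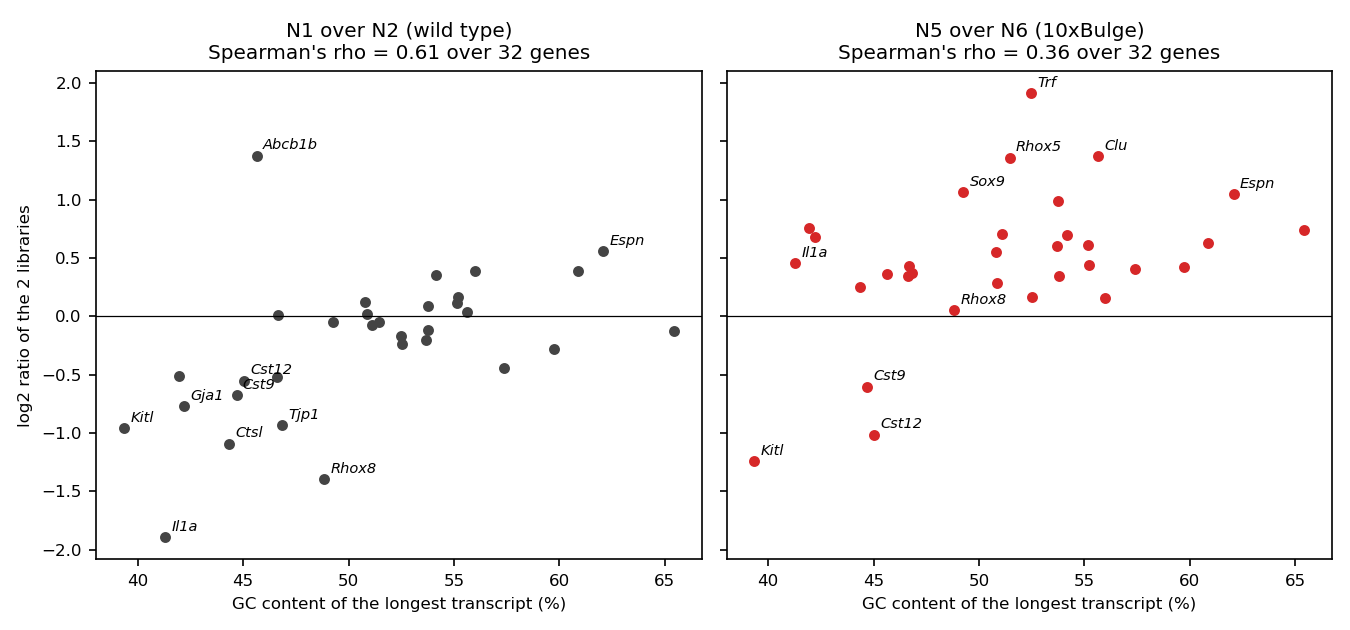
Log2 ratio of the 2 libraries of a genotype against transcript GC content (percent) for the 32 tested Sertoli cell genes, N1 over N2 for WT and N5 over N6 for *10xBulge*. The Spearman coefficients are 0.61 and 0.36, and *Kitl*, *Cst12* and *Cst9* are the 3 genes below 0 in *10xBulge*.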

How the data were processed

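Gene-level normalized counts of 6 testis RNA-seq libraries (2 each of WT, *10xPerf* and *10xBulge*) were analysed. Libraries from MILI and MIWI immunoprecipitations, 20 in all, were not used here. The authors quantified reads with salmon on GRCm39 (Ensembl release 104) and deposited DESeq2-normalized counts, a signal scaled between libraries rather than whole reads, beside their own log2 fold changes and adjusted p-values, which were not used. GC-bias correction was part of their salmon run. Because scaled values are no raw counts, log2(normalized count + 1) was fitted with limma 3.58.1 (R 4.3.3, mean-variance trend, all 6 libraries), after removing genes that reached 10 in fewer than 2 libraries. Benjamini-Hochberg adjustment ran over all 23782 genes. Fold changes are on this log2 scale and understate those of low genes. Floors of 3 reads cover counting error only. The 33 members and all gene lists were chosen with earlier results of these data known. All members are named. From the other pathway lists, up to 3 genes a direction with the smallest p were named, and in *10xPerf* members with an unadjusted p below 0.1. Gene positions are from GENCODE on GRCm38, and promoters from RefSeq. Some results of these lists and of the promoter search are not reported here. The procedure was tested on simulated data. Figures were drawn with matplotlib 3.10.9 in Python 3.11.15.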

Additional observations from a re-analysis of the deposited data

How the results depend on the processing

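With 2 mice a genotype and 19 alternatives, the direction of the Sertoli cell genes in *10xBulge* held better than their calls. The 21 genes higher against WT became 6 at an adjusted p below 0.05, beside 5.76% of all genes tested. They became 12 (6.67% of all) with a minimum of 1 normalized count in 1 library, and 12 (9.04%) without the mean-variance trend. With the 2 genotypes fitted alone 7 (6.36%) were called higher, and 1 (0.782%) when centred on the members' median. The 22 higher against *10xPerf* became 10 at 0.05, 1 when centred (with 3 lower), and 1 to 23 with one library left out (5 without N5, 10 without N4). Of all genes tested against *10xPerf*, 7.25% were called higher at 0.05 and 1.06% when centred. When centred, 12573 of 23782 genes were called lower. The fits with one library left out leave a genotype with a single library, so their counts are not set against all genes. Scaling by library totals moved the median of all genes from -0.026 to 0.35 in *10xBulge* against WT. Under this scaling 5778 genes were higher and 4791 lower in place of 2712 and 5466. The members' median of 1.17 was 1.56 under library totals (1.21 above that of all genes), 1.46 under protein-coding totals (an alternative chosen after seeing the data), 1.31 with the GC trend removed and 0.91 to 1.45 with one library left out. Against *10xPerf* the median was 1.48, 1.49 and 0.93 to 1.48 under library totals, protein-coding totals and one library left out, and for *10xPerf* against WT it was 0.16 under library totals and -0.27 to 0.23 with one library left out. Centring, which by construction places members on both sides of 0, turned *Abcb1b* (-0.69), *Cldn11* (-0.16), *Cst9* (-0.028), *Defb19* (-0.23), *Defb36* (-0.049), *Dhh* (-0.37), *Espn* (-0.74), *Gata1* (-0.028), *Gata4* (-0.052), *Inha* (-0.056), *Inhbb* (-0.18), *Kitl* (-0.066), *Rhox8* (-0.94), *Sox8* (-0.34), *Sox9* (-0.13) and *Tjp1* (-0.45) against WT. Against *10xPerf*, centring left 17 of 32 members above 0 in place of 30, and of the 4 genes whose values are given for that comparison it turned *Cst9* (-1.01) and *Il1a* (-0.28). Leaving out one library turned *Espn* (-0.098 without N5, up to 0.95), *Rhox8* (-0.47 without N1, up to 0.93) and *Abcb1b* (-0.21 without N2, up to 1.16) against WT and *Cst9* (-0.094 without N6, up to 0.51) against *10xPerf*, and the cause was not tested. No paired analysis was possible because the library numbers differ between genotypes. Having 2 libraries a genotype limits the precision of every value.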

Other observations

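Ratios between related members were compared across libraries. *Inha* over *Inhbb* was 2.72 and 4.32 in WT and 3.48 and 4.02 in *10xBulge*, *Gata4* over *Gata1* was 1.74 and 2.56 in WT and 1.93 and 2.23 in *10xBulge*, and *Defb19* over *Defb36* was 4.67 and 7.20 in WT and 5.11 and 5.09 in *10xBulge*. In these 3 pairs the *10xBulge* ratios lay between the WT ratios. *Sox9* over *Sox8* was 1.10 and 1.45 in WT and 1.66 and 1.29 in *10xBulge*. *Cst9* over *Cst12* was 1.57 and 1.71 in WT, 2.22 and 3.85 in *10xPerf*, and 1.58 and 1.19 in *10xBulge*, with both *10xPerf* ratios above the other 4 libraries. None of these ratios was tested.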
